A study of Mus musculus with 4 samples.

Results

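The receptors that bind corticosterone in the mouse brain and 6 genes known to respond to glucocorticoids were followed through the cell types of the hypothalamus. The 8 genes were taken by name: Nr3c1 and Nr3c2, which encode the glucocorticoid receptor and the mineralocorticoid receptor; Fkbp5, Sgk1, Tsc22d3, Zbtb16 and Errfi1, which glucocorticoids induce; and Hsd11b1, which encodes 11-beta-hydroxysteroid dehydrogenase type 1. They are 8 of the 32285 genes in the deposited count matrices. On build GRCm38 Nr3c2 lies at chr8:76899442-77245012, Fkbp5 at chr17:28399094-28517527, Sgk1 at chr10:21882184-21999903, Tsc22d3 at chrX:140539528-140600659, Zbtb16 at chr9:48654297-48836222, Errfi1 at chr4:150853919-150868892 and Hsd11b1 at chr1:193221634-193264075. Fkbp5 overlaps another gene of the annotation on its own strand, and reads in the overlap cannot be told apart. Overlaps of Nr3c2, Hsd11b1 and Errfi1 are with genes on the opposite strand. The position and overlaps of Nr3c1 are not given here. Single-nucleus RNA sequencing was carried out on the hypothalamus of adult male mice on the C57/BL6NCr background, either wild type (WT) or heterozygous for the R384C mutation of thyroid hormone receptor alpha 1 (TRα1+m), a constitutive exchange that lowers the affinity of the receptor for its hormone in every cell that expresses it. There were 4 libraries, each of nuclei pooled from 3 mice, and each of 2 experimental repeats gave a WT and a TRα1+m library, so that n = 2 libraries per genotype. The mutation is a single amino acid exchange, and transcript levels therefore do not check the genotype labels.

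Corticosterone is released from the adrenal gland under control of the hypothalamus and pituitary, and acts on the brain through both receptors, which sit in the cytoplasm with chaperones and move to the nucleus once they bind the hormone. The mineralocorticoid receptor has the higher affinity and is largely occupied at resting hormone levels, whereas the glucocorticoid receptor is occupied when hormone levels rise with the daily rhythm or with stress. Fkbp5 encodes a co-chaperone that lowers the affinity of the glucocorticoid receptor, Sgk1 a serum- and glucocorticoid-regulated kinase, Tsc22d3 the anti-inflammatory protein GILZ, Zbtb16 a zinc finger repressor and Errfi1 an inhibitor of the EGF receptor, and the Hsd11b1 enzyme regenerates active corticosterone inside the cell. Bound receptors recognise a palindrome of a short hexamer on both sides of a spacer, the glucocorticoid response element.

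The promoter windows of the genes are shown because this element can be read directly in the letters. RefSeq windows (build GRCm38.p6) from 250 bases before to 50 bases after a start site were available for 6 of the 8 genes, 14 windows in all; Nr3c1 and Zbtb16 had none. The motif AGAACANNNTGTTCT was found without mismatch in 1 of the 14 windows, a start site inside Sgk1, and in 3 of all 32851 windows (0.00913%). In that window, at chr10:21993640-21993939 on the plus strand, it begins 189 bases before the start site, and it is in capitals here.
Sgk1: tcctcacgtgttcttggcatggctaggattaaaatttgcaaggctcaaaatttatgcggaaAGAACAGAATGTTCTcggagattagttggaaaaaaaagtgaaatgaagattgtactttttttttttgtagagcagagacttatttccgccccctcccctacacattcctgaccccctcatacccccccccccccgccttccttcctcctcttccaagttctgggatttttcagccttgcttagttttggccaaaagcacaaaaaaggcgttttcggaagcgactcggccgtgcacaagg
The hexamer AGAACA on either strand, which the palindrome contains, was in 4 of the 14 windows (3 of Sgk1 and 1 of Tsc22d3) and in 19.0% of all windows. In the window of Tsc22d3 that begins farthest upstream, chrX:140600473-140600772 on the minus strand, the hexamer is in capitals.
Tsc22d3: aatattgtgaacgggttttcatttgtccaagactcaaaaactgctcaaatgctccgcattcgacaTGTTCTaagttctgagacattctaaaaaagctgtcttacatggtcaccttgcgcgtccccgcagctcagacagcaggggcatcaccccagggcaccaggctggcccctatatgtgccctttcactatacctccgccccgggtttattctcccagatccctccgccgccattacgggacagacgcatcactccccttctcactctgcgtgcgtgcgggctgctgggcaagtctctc
The window of Hsd11b1, chr1:193242311-193242610 on the minus strand, holds neither the palindrome nor the hexamer, and is shown because this gene differed most between repeats.
Hsd11b1: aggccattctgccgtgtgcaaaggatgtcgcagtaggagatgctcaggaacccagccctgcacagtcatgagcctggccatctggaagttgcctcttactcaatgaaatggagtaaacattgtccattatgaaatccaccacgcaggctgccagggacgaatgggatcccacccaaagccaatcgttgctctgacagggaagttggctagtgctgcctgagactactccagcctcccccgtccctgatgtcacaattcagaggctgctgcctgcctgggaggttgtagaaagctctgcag
The direct repeat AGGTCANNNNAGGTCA, the form in which thyroid hormone receptors bind, was in 0 of the 14 windows and in 5 of all windows (0.0152%). Its hexamer AGGTCA on either strand was in 3 of the 14 windows, 2 of Sgk1 and 1 of Errfi1, and in 16.3% of all windows. These matches describe letters in short windows and show no binding.

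The deposited values were whole-number counts of reads collapsed by unique molecular identifier (UMI counts), introns included, and each of 56386 nuclei carried the cluster and sub-cluster given by the authors. The UMIs of a gene were summed per library over each cluster, and levels are UMIs per 1000000 UMIs of that sum (CPM). CPM does not correct for gene length, so levels are compared between cell types within a gene and not between genes. The libraries held 11976 to 16435 nuclei and 47260127 to 59112785 UMIs. Median UMIs per nucleus were 3037.5 and 2904 in repeat 1 and 4018 and 3381.5 in repeat 2 (WT and TRα1+m). Pairs of libraries shared 44 to 64 barcodes among kept nuclei. A cluster named Neurons_2 came almost wholly from 1 library, with 852 nuclei in TRα1+m repeat 2 and 1 to 6 in each of the others, and was left out. Cell type labels were checked with marker genes. The 5 astrocyte markers summed to 5568 to 9033 CPM in the astrocyte cluster and to 192 to 418 CPM in Neurons_1, and the 5 oligodendrocyte markers summed to 9087 to 22374 CPM in oligodendrocytes and to 370 to 521 CPM in Neurons_1. The microglia cluster also held 10 endothelial and mural markers at 487 to 1438 CPM in sum. It further held 6 markers of vascular and leptomeningeal cells (VLMCs) at 324 to 885 CPM and 4 pituitary markers at 83.5 to 1559 CPM. Among neuronal sub-clusters, Hcrt, which encodes orexin, was at 69.6 ± 30.6 CPM in the sub-cluster labelled Orexin, the lowest of 12, against 827 CPM in glutamatergic_2. That sub-cluster is therefore called by its label only. The sub-cluster labelled AVasopressin held less Avp (3042 ± 2163 CPM) than the Oxytocin sub-cluster (21430 CPM), and its summed tanycyte markers, at 1443 to 2222 CPM, were above those of the other neuronal sub-clusters. The Oxytocin sub-cluster carries the full label Oxytocin+, AVP Neurons and was highest in both Avp and Oxt (13963 ± 13290 CPM). Its short name here therefore does not mean oxytocin neurons alone. The sub-cluster labelled MCH was highest in Pmch (9491 ± 8878 CPM), but endothelial or mural genes, 2 or more together, were found in 12.1% to 35.2% of its nuclei.

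The receptors were found in all 17 cell types compared, with different orders. Nr3c1 was highest in NPY/AgRP neurons, which drive feeding (216 ± 23.97 CPM, SD, n = 4 libraries), and in microglia and macrophages (202 ± 9.84 CPM). Tanycytes, the ependymal cells that line the third ventricle, reached 174 ± 57.8 CPM, astrocytes 171 ± 29.1 CPM, oligodendrocytes 159 ± 31.3 CPM and oligodendrocyte progenitor cells (OPCs) 138 ± 16.6 CPM. GABA neurons, the largest sub-cluster, were at 87.7 ± 13.3 CPM and POMC/CART neurons at 79.3 CPM (66.4 to 100.1 CPM over libraries). The lowest levels were in the sub-clusters labelled AVasopressin and Oxytocin, at 40.1 ± 6.28 CPM and 18.6 ± 7.20 CPM. Library ranges of neighbours in this order overlapped in 15 of 16 pairs, so the order is one of gradual steps, and the step from AVasopressin (31.1 to 44.8 CPM) to Oxytocin (9.64 to 26.0 CPM) was the exception. A UMI of Nr3c1 was found in 48.6% to 65.5% of NPY/AgRP nuclei and in 6.49% to 11.2% of Oxytocin nuclei, and after each nucleus was thinned to 1000 UMIs in 17.8% to 22.9% and 1.30% to 2.24%.

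Nr3c2 followed another order. Its highest levels were in astrocytes (446 ± 29.3 CPM), tanycytes (437 ± 25.1 CPM) and Somatostatin neurons (425 CPM, 343 to 511 CPM over libraries), whose ranges overlapped, and every library of these 3 lay above all libraries of the next type, NPY/AgRP neurons (296 ± 20.2 CPM). The Oxytocin sub-cluster, the lowest for Nr3c1, was at 176 ± 7.84 CPM for Nr3c2, within the neuronal range. Oligodendrocytes (108 ± 2.52 CPM), POMC/CART neurons (89.3 ± 24.4 CPM) and the sub-cluster labelled Orexin (74.7 CPM, 55.8 to 85.3 CPM) had the lowest levels. The ratio of Nr3c1 to Nr3c2 UMIs, which depends on the lengths of both genes and is used only to compare cell types, ran from 0.106 ± 0.0413 in the Oxytocin sub-cluster to 1.47 ± 0.292 in oligodendrocytes. Microglia and macrophages (0.996 ± 0.101), POMC/CART neurons (0.914 ± 0.165) and OPCs (0.867 ± 0.0963) followed oligodendrocytes, whereas astrocytes stood at 0.381 ± 0.0400. The 4 oligodendrocyte libraries, at 1.16 to 1.79, all lay above every library of the other 16 cell types, of which the highest reached 1.12.

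Fkbp5, the co-chaperone gene, was highest in microglia and macrophages (138 ± 19.0 CPM, 120 to 164 CPM over libraries), apart from all others, and next in NPY/AgRP neurons (76.5 ± 11.8 CPM). It was lowest in astrocytes (15.2 ± 2.44 CPM), where every library was below every library of the next type. Nuclei with endothelial or mural genes were 8.88% to 11.7% of the microglia cluster, and without them the level there stayed within 1 SD. Nuclei with VLMC or pituitary genes were not removed, and their part in the levels of this cluster was not tested.

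Sgk1, the kinase gene, was highest in OPCs (163 ± 11.9 CPM, 152 to 177 CPM), with no overlap with the sub-cluster labelled Orexin below them (100 ± 23.1 CPM). Oligodendrocytes, into which OPCs mature, averaged 72.8 CPM, but with a spread of 39.9 CPM over libraries that ranged from 34.0 to 126 CPM. GABA neurons stood at 68.2 ± 2.72 CPM and the glutamatergic sub-clusters at 39.2 to 70.5 CPM. Tanycytes (14.1 ± 2.01 CPM) and astrocytes (13.4 ± 5.17 CPM) were lowest and did not overlap with the neurons above them.

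Tsc22d3, the GILZ gene, was chiefly a transcript of glia. It was highest in tanycytes (280 ± 84.4 CPM), followed without overlap by oligodendrocytes (174 ± 11.6 CPM) and by astrocytes (134 ± 7.21 CPM), with microglia and macrophages at 87.3 ± 28.4 CPM. OPCs held 30.5 ± 5.72 CPM. In 11 of the 12 neuronal sub-clusters it lay between 11.8 and 23.0 CPM, and in the sub-cluster labelled MCH it was at 66.1 CPM (57.6 to 75.3 CPM), or 47.4 ± 11.7 CPM without nuclei that carried endothelial or mural genes.

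Zbtb16, the zinc finger repressor gene, was highest in oligodendrocytes (152 ± 28.3 CPM), where every library was above every library of astrocytes (78.6 ± 6.98 CPM). NPY/AgRP and Somatostatin neurons held 64.2 ± 20.0 and 66.4 ± 12.8 CPM, the sub-cluster labelled AVasopressin 12.1 ± 0.959 CPM and the Oxytocin sub-cluster 3.13 ± 3.29 CPM, the latter from 7 UMIs in all. The level in the sub-cluster labelled MCH, 71.0 ± 13.8 CPM, was 40.9 ± 11.7 CPM without nuclei that carried endothelial or mural genes. Its pattern over the 17 cell types was the most like that of Nr3c1 among 14055 genes (Pearson r = 0.895 across cell types, as a description; the points share libraries and depth), and Nr3c1 was in turn the gene most like Zbtb16.

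Hsd11b1, the gene of the enzyme that regenerates corticosterone, was at 77.2 ± 44.4 CPM in astrocytes and at 12.7 CPM or less on average in the other 16 types. The lowest astrocyte library, 32.0 CPM, was above the highest library of any other type, 14.6 CPM. Tanycytes, which share a main cluster with astrocytes, held 9.65 ± 1.03 CPM. The small cluster that the authors called non-neuronal, not among the 17 types, ran from 5.45 to 123 CPM over libraries. Errfi1, the EGF receptor inhibitor gene, was highest in oligodendrocytes (47.6 ± 9.78 CPM) and in microglia and macrophages (42.1 ± 4.83 CPM), which overlapped, and lay between 11.2 and 19.3 CPM on average in the other 15 types. The levels of all 8 genes by cell type and library are plotted next.

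**Figure D1:**
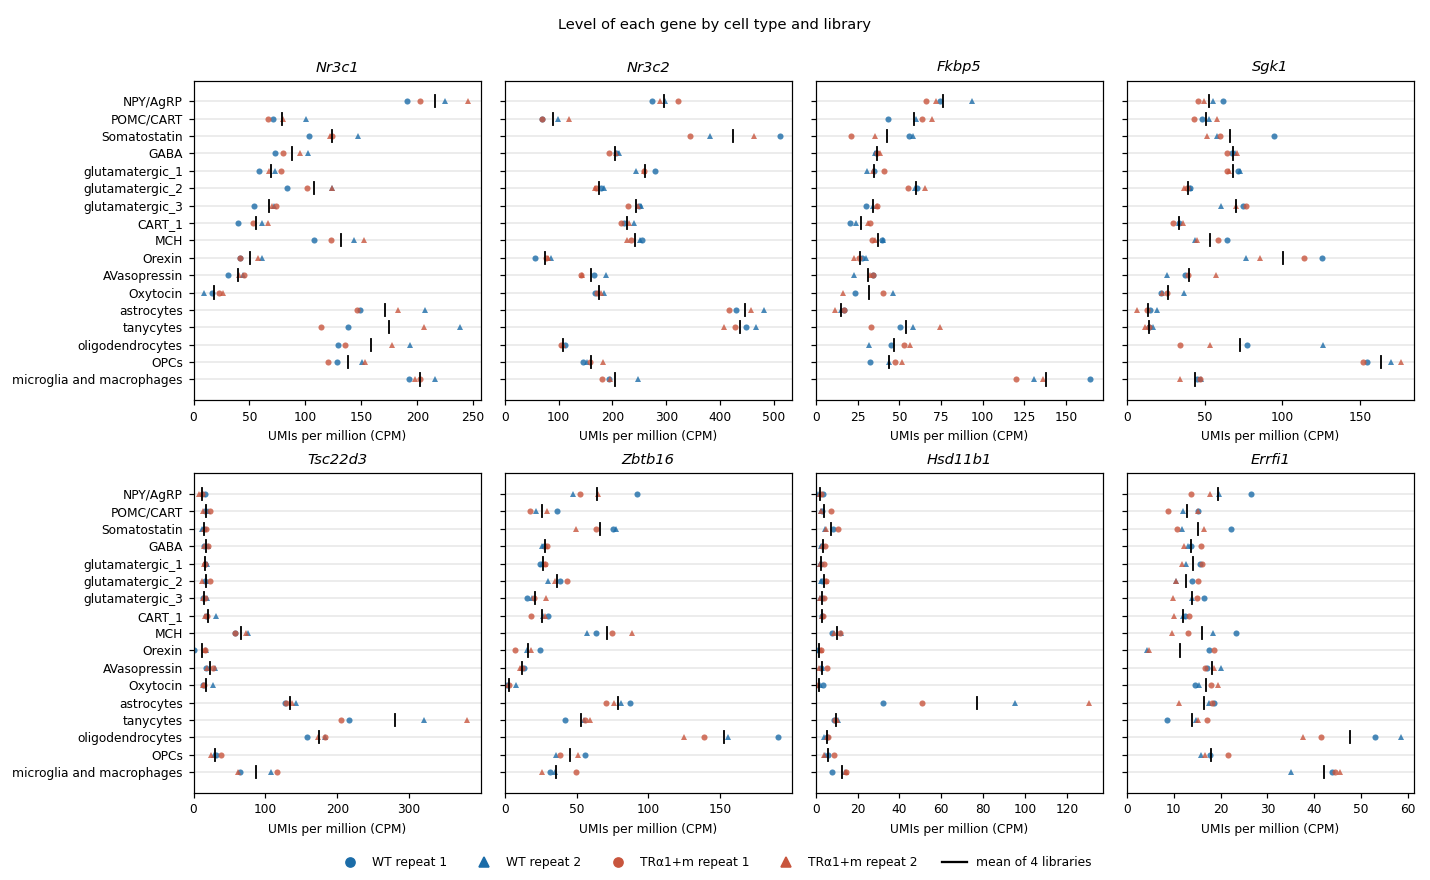
Level in CPM ( horizontal axis, linear from 0, with its own scale in each panel) of the 8 genes in 17 cell types (rows). Points are the 4 libraries, coloured by genotype and shaped by repeat, and black bars are their means. Hsd11b1 stands out in astrocytes, Sgk1 in OPCs and Fkbp5 in microglia and macrophages, and oligodendrocyte libraries of Sgk1 run from 34.0 to 126 CPM.

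The genes whose patterns were most like each member over the 17 cell types were named by a rule, as a description with no test, since all points come from the same 4 libraries. For Hsd11b1 they were Lfng (r = 0.952), Agt (0.950), which encodes angiotensinogen, and Etnppl (0.950). For Tsc22d3 they were mt-Nd4l (0.958), Arap2 (0.954) and Nod1 (0.953), and for Errfi1 Smco3 (0.912), Ptgds (0.912) and Trf (0.907), the transferrin gene. Sgk1 was most like Ptpre (0.889), 8030451O07Rik (0.845) and Nav1 (0.815), Fkbp5 like Ppp4r2 (0.856), Sik2 (0.813) and Rnpep (0.812), and Nr3c2 like Ssbp2 (0.827), Ngef (0.821) and Plch1 (0.818). After Zbtb16, Nr3c1 was most like Ngb (0.861) and Gtf2i (0.854), and after Nr3c1, Zbtb16 was most like Aldh3b1 (0.861) and Zswim1 (0.846). Between members the lowest value was that of Nr3c2 and Sgk1 (r = -0.517).

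The study asked which hypothalamic cells depend on TRα1, and the members were therefore compared between genotypes in each cell type. With genotype as the only term, none of the 39 pairs of member and main cell type that passed the filter on low counts was called by edgeR's quasi-likelihood test at a Benjamini-Hochberg adjusted p of 0.05, nor by DESeq2; 1 pair was below an unadjusted p of 0.05 with each tool. Over all genes 0.0188% of the tests in the 5 main cell types were called (13 of 69052, all in oligodendrocytes). In 14 sub-clusters 0 of 95 pairs were called by either tool, 1 pair in edgeR and 0 pairs in DESeq2 were below an unadjusted p of 0.05, and 0.0031% of all tests were called. With the repeat as a block, which the design allows because each repeat held both genotypes, 2 pairs were called in main cell types: Sgk1 was lower in TRα1+m oligodendrocytes and Hsd11b1 higher in the TRα1+m astrocyte cluster. The block leaves 1 residual degree of freedom per gene, so its tests rest mostly on the spread pooled over genes. It called 1.22% of all tests in the main cell types, 4.35% in oligodendrocytes and 1.28% in the astrocyte cluster.

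Sgk1 in oligodendrocytes was at 77.2 CPM in WT repeat 1, 126 CPM in WT repeat 2, 34.0 CPM in TRα1+m repeat 1 and 53.5 CPM in TRα1+m repeat 2 (200, 343, 92 and 135 UMIs). Both mutant libraries were below both WT libraries, and within each repeat the mutant library was the lower, by -1.18 in repeat 1 and -1.24 in repeat 2 on the log2 scale. The log2 fold change was -1.15 ± 0.32 (SE) with an adjusted p of 0.509 without the block, and -1.14 ± 0.17 with an adjusted p of 1.86e-07 with it (edgeR). DESeq2 with the block gave an adjusted p of 0.0080. CPM ranges of the genotypes were also apart for 5 of the 8 members and for 32.3% of all genes tested in oligodendrocytes, so separation alone sets no gene apart. In the same libraries OPCs held 154 and 170 CPM (WT) and 152 and 177 CPM (TRα1+m), which overlapped, as did Neurons_1 at 63.6 and 60.0 against 60.3 and 60.8 CPM. The difference of the genotype effect between oligodendrocytes and Neurons_1 was -1.09 ± 0.15 with the cell type by repeat term (adjusted p = 6.52e-08, edgeR). That fit, too, leaves 1 residual degree of freedom per gene, and its share of all tests called is not given here. Without that term the difference was -1.08 ± 0.37. No member passed in the interaction without that term, where 0.0694% of all tests were called.

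**Figure D2:**
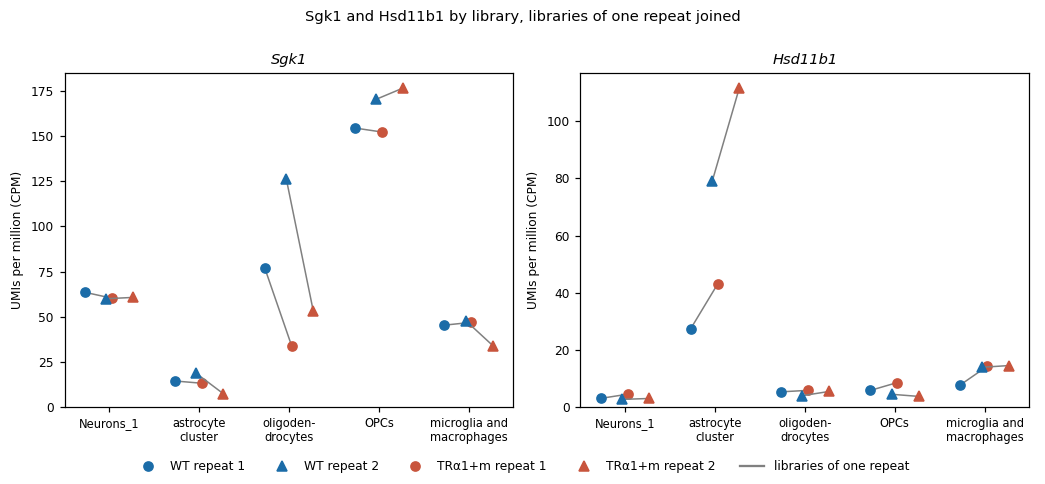
Level in CPM ( vertical axis from 0) of Sgk1 (left) and Hsd11b1 (right) in the 5 main cell types (horizontal axis), one point per library, with grey lines joining the WT and TRα1+m libraries of a repeat. Sgk1 falls along both lines in oligodendrocytes and the lines in OPCs are nearly flat. Hsd11b1 in the astrocyte cluster climbs along both lines and is higher in both repeat 2 libraries (79.1 and 111 CPM) than in both repeat 1 libraries (27.5 and 43.1 CPM).

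The share of oligodendrocyte nuclei with an Sgk1 UMI gave the same order of libraries. It was 10.7% in WT repeat 1 (95% Wilson interval 9.32% to 12.3%) and 20.3% in WT repeat 2 (18.2% to 22.5%). In TRα1+m it was 5.28% in repeat 1 (4.31% to 6.46%) and 8.78% in repeat 2 (7.41% to 10.4%). These intervals cover counting error only. The WT share of repeat 1 and the mutant share of repeat 2 had overlapping intervals, and within each repeat the intervals were apart. After thinning to 1000 UMIs the shares were 6.96%, 10.2%, 3.15% and 5.35%, and the order of the libraries was the same at equal depth. Thinning left out 75, 12, 64 and 11 nuclei with fewer than 1000 UMIs (WT repeats 1 and 2, then TRα1+m repeats 1 and 2). Depth per nucleus was 1493 and 1811.5 UMIs in WT and 1516 and 1663 UMIs in TRα1+m (medians). In astrocytes, where Sgk1 was lowest, 1.30% to 4.25% of nuclei had a UMI at median depths of 1662.5 to 2200. Nuclei with 3 or more Sgk1 UMIs numbered 2 and 10 in the WT and 0 and 0 in the TRα1+m oligodendrocyte libraries. Summed oligodendrocyte markers moved with the repeat, at 10054 and 9087 CPM in repeat 1 and 18642 and 22374 CPM in repeat 2 (WT and TRα1+m), and endothelial and mural markers were at 25.7 to 83.9 CPM. The 5 tanycyte markers summed to 552 and 464 CPM in WT and 804 and 572 CPM in TRα1+m oligodendrocytes, apart between genotypes, and their part in the Sgk1 result was not tested. Of these 5, 1 was itself called higher in TRα1+m (genotype alone, edgeR), where 0.103% of all genes were called. The median log2 fold change of the 5 was 0.13. Without nuclei carrying endothelial or mural genes the blocked value was as large (-1.14, adjusted p = 2.66e-09, edgeR).

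Other members were not called between genotypes in oligodendrocytes, with or without the block. Fkbp5 was at 45.1 and 32.1 CPM in WT and 52.8 and 56.6 CPM in TRα1+m, apart, with a log2 fold change of 0.57 ± 0.24 (adjusted p = 0.967, and 0.0624 with the block, edgeR). With the block and without nuclei that carried endothelial or mural genes, its adjusted p was 0.0482. Zbtb16 was at 190 and 156 CPM in WT and 139 and 125 CPM in TRα1+m (log2 fold change -0.33 ± 0.19, adjusted p = 0.999, and 0.318 with the block). Errfi1 was at 52.9 and 58.6 CPM in WT and 41.4 and 37.6 CPM in TRα1+m (-0.43 ± 0.19, adjusted p = 0.983, and 0.240 with the block). The receptors overlapped between genotypes there, Nr3c1 at 129 and 193 against 136 and 177 CPM and Nr3c2 at 111 and 108 against 105 and 109 CPM. The log2 fold changes of Fkbp5 and Sgk1 had opposite signs in oligodendrocytes. Fkbp5 was not called in the fits of all nuclei, and the cause of either value was not tested.

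Hsd11b1 in the astrocyte cluster was at 27.5 CPM in WT repeat 1, 79.1 CPM in WT repeat 2, 43.1 CPM in TRα1+m repeat 1 and 111 CPM in TRα1+m repeat 2. The genotypes overlapped, and within each repeat the mutant library was the higher, by 0.65 in repeat 1 and 0.50 in repeat 2 (log2). The fold change was 0.55 ± 0.65 on the log2 scale without the block (adjusted p = 1.00) and 0.58 ± 0.13 with it (adjusted p = 0.0089, edgeR). DESeq2 with the block did not call it (adjusted p = 1.00, log2 fold change 0.58 ± 0.24). In the astrocyte sub-cluster alone the blocked value was 0.55 ± 0.14 (adjusted p = 0.0072), the single member call among the 95 sub-cluster pairs, where the block called 0.54% of all tests. This call was lost with DESeq2 and without nuclei that carried endothelial or mural genes. Summed astrocyte markers in these libraries were 5568 and 7391 CPM in WT and 6000 and 9033 CPM in TRα1+m (repeats 1 and 2), in the same order as Hsd11b1, and the part of this in the result was not tested. No other member was called in any sub-cluster with or without the block.

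**Figure D3:**
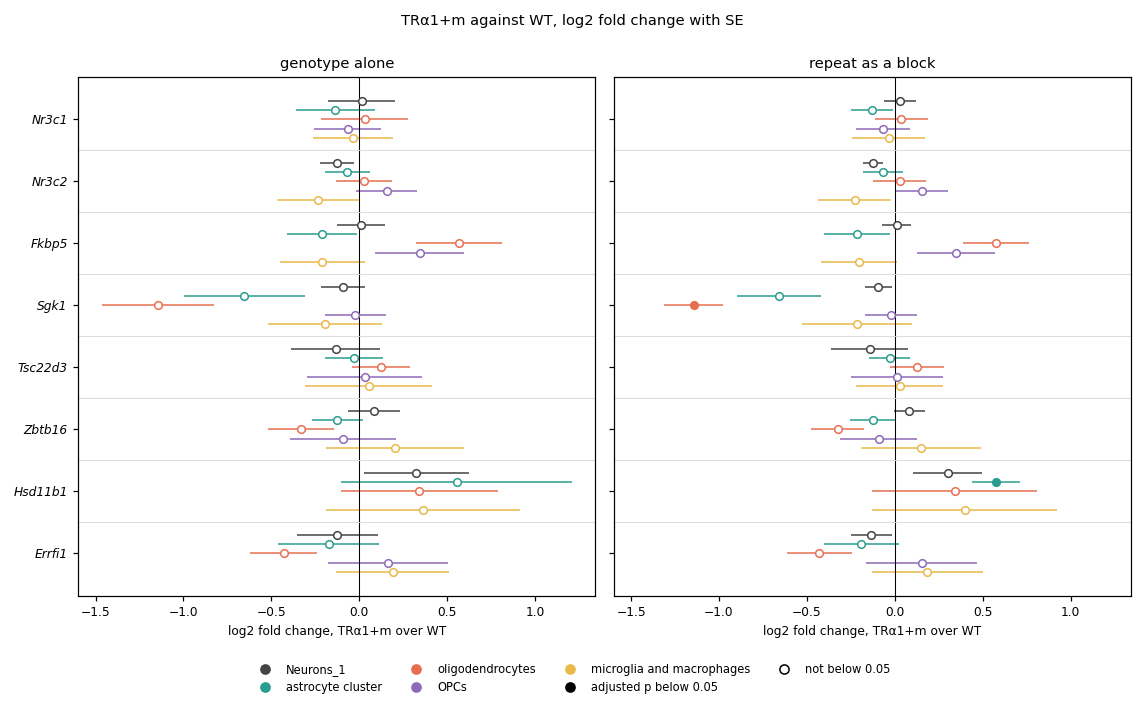
Log2 fold change of TRα1+m over WT (horizontal axis) with SE for the 8 genes (rows) in 5 main cell types (colours), with genotype alone (left) and with the repeat as a block (right), on one scale. Filled points have an adjusted p below 0.05, and the only 2 are Sgk1 in oligodendrocytes (-1.14) and Hsd11b1 in the astrocyte cluster (0.58), both with the block; Hsd11b1 in OPCs did not pass the filter.

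No other member was called between genotypes in the remaining main cell types. Nr3c1 ran from -0.14 to 0.03 over the 5 types and Nr3c2 from -0.24 to 0.16 (log2 fold change), and Tsc22d3 from -0.13 to 0.12. In OPCs the genotypes did not overlap for Nr3c2 (146 and 152 CPM in WT, 158 and 183 CPM in TRα1+m) or Fkbp5 (32.5 and 43.9 against 47.6 and 51.7 CPM), and neither was called. Such gaps were not particular to OPCs. They were seen for 2 of 8 members in Neurons_1, for 2 in microglia and macrophages and for 3 in the astrocyte cluster. The share over all genes was taken only in oligodendrocytes (32.3%), so these gaps set no gene apart. Sgk1 in the astrocyte cluster was at 14.6 and 18.7 CPM in WT and 13.3 and 7.51 CPM in TRα1+m, apart by a small gap, with a log2 fold change of -0.65 ± 0.34 (adjusted p = 1.00, and 0.215 with the block, edgeR).

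Because the same design holds 2 repeats, the members were also compared between repeat 2 and repeat 1 with genotype as a term. Like the block, this fit leaves 1 residual degree of freedom per gene, so its tests rest mostly on the spread pooled over genes. Here 5 of the 39 pairs were called, all higher in repeat 2. The share of all genes called was 25.2% in Neurons_1, 20.6% in the astrocyte cluster, 12.4% in oligodendrocytes, 6.27% in microglia and macrophages and 11.4% in OPCs, and the members' counts (1 of 8, 2 of 8, 2 of 8, 0 of 8 and 0 of 7) came from 8 genes at most per type and are not set apart from this background. DESeq2 called 1 of the 5, Hsd11b1. The repeats used different mice and differed in depth per nucleus, and these cannot be told apart.

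The largest of these differences was that of Hsd11b1 in the astrocyte cluster, with a log2 fold change of 1.41 ± 0.14 (adjusted p = 7.08e-14, edgeR), 1.53 within WT and 1.37 within TRα1+m libraries. Without the genotype term it was 1.39 ± 0.23 (adjusted p = 0.0069, edgeR), and with DESeq2 1.41 ± 0.24 (adjusted p = 7.73e-07). In the astrocyte sub-cluster the libraries were at 32.0 and 50.96 CPM in repeat 1 and 95.1 and 131 CPM in repeat 2 (WT and TRα1+m). The repeats did not overlap, but the share of all genes apart between repeats was not taken. The share of astrocyte nuclei with a UMI was 5.87% (4.93% to 6.98%) and 8.14% (7.12% to 9.30%) in repeat 1, against 19.2% (17.5% to 21.0%) and 23.3% (21.3% to 25.3%) in repeat 2. Thinned to 1000 UMIs it was 3.06% and 4.97% against 9.49% and 11.7%, so the repeats remained apart at equal depth. In oligodendrocytes, where the level was 5.23 ± 0.81 CPM, 0.788% to 0.991% of nuclei had a UMI at median depths of 1493 to 1811.5. In tanycytes the levels were 8.59, 10.8, 9.03 and 10.1 CPM (WT repeats, then TRα1+m repeats), and those of Neurons_1 were 3.12, 2.77, 4.59 and 3.09 CPM. The repeat effect differed between the astrocyte cluster and Neurons_1 by 1.87 ± 0.19 (log2, adjusted p = 9.4e-06, edgeR interaction). It was the single such call among the 8 members over 4 fits, where 3.15% of all interaction tests were called. The count is therefore not set apart from that background. Summed astrocyte markers were higher in repeat 2 in the astrocyte cluster and lower in Neurons_1, and their part in this difference was not tested.

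**Figure D4:**
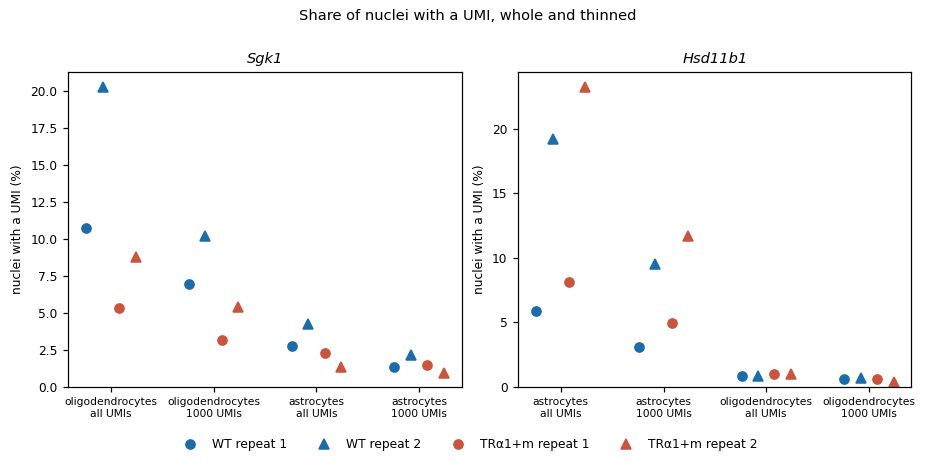
Percentage of nuclei with at least 1 UMI (vertical axis from 0) of Sgk1 (left) and Hsd11b1 (right), per library, in the named cell types. Shares are given with all UMIs and with nuclei thinned to 1000 UMIs, nuclei below that depth left out. Thinning lowers every share but keeps the WT libraries of Sgk1 above the TRα1+m library of the same repeat in oligodendrocytes, and the repeat 2 libraries of Hsd11b1 above the repeat 1 libraries in astrocytes.

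Nr3c1 was higher in repeat 2 in 3 main cell types. It was at 147 and 140 CPM in repeat 1 and 213 and 184 CPM in repeat 2 of the astrocyte cluster (log2 fold change 0.44 ± 0.12, adjusted p = 0.0042), at 129 and 136 against 193 and 177 CPM in oligodendrocytes (0.47 ± 0.15, adjusted p = 0.026), and at 69.0 and 81.9 against 97.0 and 93.2 CPM in Neurons_1 (0.30 ± 0.09, adjusted p = 0.039; WT before TRα1+m in each pair, edgeR). The repeats did not overlap in any of these. The share of all genes apart between repeats was not taken, so this separation sets no gene apart. In sub-clusters it was called in tanycytes (0.76 ± 0.16), where it went from 138 and 114 to 238 and 206 CPM, in astrocytes (0.36 ± 0.13), in GABA neurons (0.32 ± 0.09) and in glutamatergic_2 neurons (0.39 ± 0.10). Its value was above 0 in 13 of 14 sub-clusters. All of them come from the same 4 libraries and are not replicates, and the share of all genes with such a count was not taken. DESeq2 called none of these Nr3c1 values in main cell types or sub-clusters, and the 3 calls in main cell types were also lost when the genotype term was dropped. Nr3c2 had no call in main cell types, with values of -0.03 to 0.20, and 1 in sub-clusters, POMC/CART neurons (0.60 ± 0.19, adjusted p = 0.028), from 69.3 and 69.3 to 99.3 and 119 CPM, a call lost with DESeq2 and without the genotype term.

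Among the response genes, Sgk1 in oligodendrocytes was higher in repeat 2 within both genotypes (0.67 ± 0.17, adjusted p = 0.0025, edgeR), a call that was lost when the genotype term was dropped (adjusted p = 0.708). Tsc22d3 was higher in repeat 2 in tanycytes (0.67 ± 0.15, adjusted p = 4.73e-04, edgeR), at 216 and 206 CPM in repeat 1 and 320 and 380 CPM in repeat 2, and its shares of nuclei thinned to 1000 UMIs were 20.4% and 18.6% against 23.3% and 29.7%. Summed tanycyte markers in tanycytes were 5638 and 5065 CPM in repeat 1 and 7798 and 9824 CPM in repeat 2, in the same order as Tsc22d3. Their part in the repeat values of Tsc22d3 and Nr3c1 in tanycytes was not tested. Zbtb16 was lower in repeat 2 in glutamatergic_2 neurons (-0.38 ± 0.14, adjusted p = 0.043). Fkbp5 and Errfi1 had no call between repeats in any cell type tested. In sub-clusters 8 of 95 pairs were called, against 15.3% of all tests, and DESeq2 called 1 of them, Hsd11b1 in astrocytes.

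**Figure D5:**
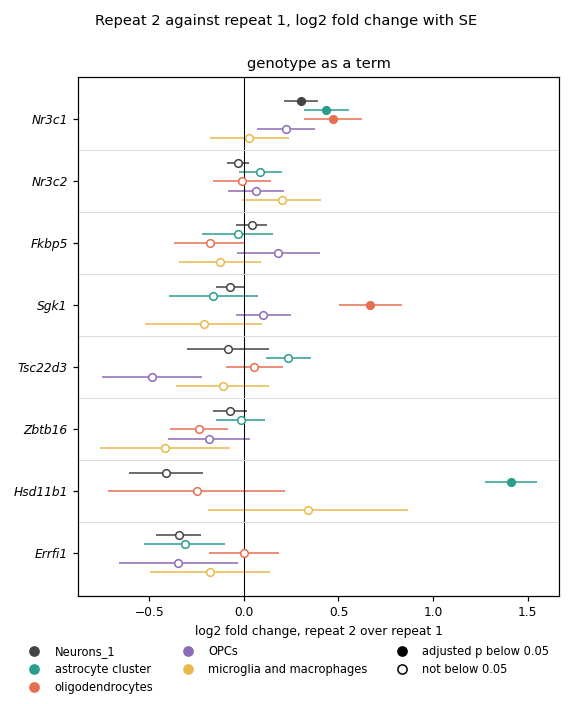
Log2 fold change of repeat 2 over repeat 1 (horizontal axis) with SE for the 8 genes (rows) in 5 main cell types (colours), with genotype as a term. The 5 filled points, with an adjusted p below 0.05, are Nr3c1 in Neurons_1, the astrocyte cluster and oligodendrocytes, Sgk1 in oligodendrocytes and Hsd11b1 in the astrocyte cluster, and the last, at 1.41, is the farthest from 0.

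Other genes of the pathway were followed as lists, beside the same background. Between genotypes, with genotype as the only term, edgeR called 0 pairs of list gene and main cell type in any of the 6 lists. That fit called 0.0188% of all tests in the main cell types, so a count of 0 says little about the lists. The lists were not counted in the fit with the repeat as a block. The shares of all genes called between repeats, 6.27% to 25.2% by cell type, are the background for the counts that follow, against which no list was tested. Between repeats, 17 of 83 pairs were called among 22 other glucocorticoid-induced genes, 6 higher and 11 lower in repeat 2. The metallothionein genes Mt1 and Mt2, which bind zinc and copper, were lower in repeat 2: in OPCs Mt1 was at 514 and 756 CPM in repeat 1 and 252 and 151 CPM in repeat 2 (log2 fold change -1.73 ± 0.13). In microglia and macrophages Mt2 was at 132 and 234 against 58.3 and 45.4 CPM (-1.78 ± 0.24). Gjb6, which encodes the gap junction protein connexin 30, was higher in repeat 2 in the astrocyte cluster (118 and 106 against 232 and 194 CPM). It was lower in OPCs (-1.57 ± 0.37) and oligodendrocytes (-1.22 ± 0.27). Of 5 astrocyte markers, 4 were also called lower in repeat 2 in OPCs (median -0.93) and 4 in oligodendrocytes (median -0.91). In the astrocyte cluster 3 of them were called higher (median 0.61). The part of this in the values of list genes in OPCs and oligodendrocytes was not tested. Bcl6, a transcriptional repressor gene, was higher in the astrocyte cluster (42.8 and 39.0 against 55.1 and 71.6 CPM). Glul, the glutamine synthetase gene, was called lower in OPCs (-0.69 ± 0.16), where TRα1+m repeat 2 was at 57.8 CPM and the other 3 libraries at 121 to 149 CPM. The median log2 fold change of this list ran from -0.39 in OPCs to 0.19 in the astrocyte cluster, where the medians over all genes were -0.01 and 0.01.

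Of 12 receptor chaperone genes, 12 of 60 pairs were called between repeats, 4 higher, all in Neurons_1, and 8 lower. Hsp90ab1, which encodes a form of the chaperone that holds unbound receptor, was at 528 and 537 CPM in repeat 1 and 366 and 387 CPM in repeat 2 of the astrocyte cluster (-0.53 ± 0.11), and St13 (-0.44 ± 0.12) was lower there too. Stip1 was lower in oligodendrocytes (-0.60 ± 0.18), whereas Hspa4 (0.49 ± 0.07) and Ppid (0.38 ± 0.09) were higher in Neurons_1. Of 9 coregulator genes 3 of 45 pairs were called, 2 higher and 1 lower, the latter Smarca4, which encodes a chromatin remodelling ATPase and was lower in repeat 2 in Neurons_1 (-0.22 ± 0.07). Of 7 genes of glucocorticoid metabolism and transport 0 of 15 pairs were called. Clock genes, some of which the glucocorticoid receptor also induces, had 13 of 69 pairs called, 8 higher and 5 lower. Dbp (0.71 ± 0.14), Hlf (0.62 ± 0.12), Per3 (0.53 ± 0.12) and Per2 (0.58 ± 0.16) were higher in the astrocyte cluster. Dbp was also higher in Neurons_1 (0.39 ± 0.12) and Per3 in microglia and macrophages (0.89 ± 0.26). Nr1d1 was lower in oligodendrocytes (-1.39 ± 0.26), OPCs (-1.08 ± 0.30), Neurons_1 (-1.04 ± 0.23) and the astrocyte cluster (-0.87 ± 0.21). Of 12 immediate early genes, which mark recent activity, 2 of 31 pairs were called, Nr4a1 (0.79 ± 0.15) and Btg2 (0.55 ± 0.16), both in Neurons_1.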

How the data were processed

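Hypothalamic nuclei of 12 mice were sequenced with 10x chemistry in 4 libraries. The authors made the deposited UMI counts with Cell Ranger 5.0.1 (introns included, GRCm38) and annotated nuclei in Seurat; barcodes they did not keep, 68190 less the 56386 annotated nuclei, were not used, and doublets were treated only as the authors had done. Raw counts were summed per library and cell type. Genes passing edgeR's low-count filter were tested with edgeR 4.0.16 (R 4.3.3; TMM factors, quasi-likelihood test, Benjamini-Hochberg over all genes of a type), genotype alone or repeat with genotype as a term, and also with DESeq2 1.42.0. A cluster was tested where each library held 10 nuclei or more. The non-neuronal cluster was left out by name, although each library held at least 34 of its nuclei. An adjusted p below 0.05 was a call. Interactions compared each main type with Neurons_1. For shares, nuclei with 1000 UMIs or more were thinned to 1000 UMIs, and nuclei with fewer were left out of the thinned shares. Nuclei with at least 2 of 10 endothelial or mural genes were removed in an alternative.

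Repeats pair libraries: each held both genotypes, and repeat differences of the genotypes correlated across genes with r = 0.393 to 0.685 in the 5 main types. The members and lists were chosen with earlier results of these data known. Named pathway genes were at most 5 called per list and contrast, those of smallest adjusted p, and likeness used genes of at least 10 CPM in some type. The scripts were tested on simulated data. Total UMIs per library were 47260127 to 59112785; intervals cover counting error only. 1 coregulator gene is not reported here.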

Additional observations from a re-analysis of the deposited data

Results flagged for a closer look

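Hsd11b1 was marked because its repeat effect differed between cell types by a test of the difference itself. This was the single such call among the 8 members over 4 fits. Of all interaction tests 3.15% were called, so this count is not set apart from that background. The log2 fold change of repeat 2 over repeat 1 in the astrocyte cluster exceeded that in Neurons_1 by 1.87 ± 0.19 (SE, adjusted p = 9.4e-06, edgeR interaction), and the astrocyte cluster was higher in repeat 2 in both genotypes. Summed astrocyte markers in the astrocyte cluster were also higher in repeat 2 in both genotypes. In Neurons_1 they were lower in repeat 2, at 314 and 418 CPM in repeat 1 and 261 and 192 CPM in repeat 2 (WT and TRα1+m). The part of these opposed marker differences in the result was not tested.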

How the results depend on the processing

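Normalisation by RLE factors and edgeR's bias-adjusted fit left the number of member calls between genotypes at 0, as did removal of the low-count filter, of nuclei with endothelial or mural genes, or of any 1 library. The repeat as a block gave 2 calls in main cell types and 1 in sub-clusters (edgeR), and with the bias-adjusted fit again 2 and 1. With DESeq2 the block gave 1 call in main cell types. In edgeR the block without nuclei with endothelial or mural genes gave 3, the third being Fkbp5 in oligodendrocytes (adjusted p = 0.048). The block gave 1 call in the cell type interaction. Leave-one-out with the block could not be fitted, since no residual degree of freedom remains. Between repeats, DESeq2 gave 1 call in main cell types and 1 in sub-clusters, and dropping the genotype term gave 1 and 5. With 1 library left out as well, there were 1 to 4 and 2 to 8 calls, and 1 to 3 in the interaction. A lone library was taken to have the spread of the remaining pair. The share of all genes called also moved with the fit. Between genotypes in main cell types it was 0.0188% without and 1.22% with the block (edgeR). For the other alternative fits this share is not given here. Their member counts therefore cannot be set against a background, and changes in them are not particular to the members. The cause of the changes in count was not tested.

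Signs changed in 4 small repeat values and 1 genotype value: Nr3c2 in oligodendrocytes without the filter (0.0048), Errfi1 in oligodendrocytes with DESeq2 (-0.0058) and the bias-adjusted fit (-1.5e-04), Errfi1 in microglia and macrophages without endothelial or mural nuclei (0.025), and Tsc22d3 in OPCs with the block and DESeq2 (-0.0061). With 1 library left out, 21 of 39 genotype and 20 of 39 repeat log2 fold changes changed sign. These genotype fits held no repeat term and these repeat fits no genotype term. Leaving out 1 library makes the design unequal, so repeat differences enter the genotype values and genotype differences the repeat values. The lowest and highest values of those that changed sign follow. For Errfi1 they were, between genotypes -0.36 to 0.069 in Neurons_1, -0.078 to 0.35 in OPCs, -0.54 to 0.098 in astrocyte cluster, -0.0021 to 0.38 in microglia and macrophages and, between repeats -0.38 to 0.0019 in microglia and macrophages, -0.28 to 0.26 in oligodendrocytes. For Fkbp5 they were, between genotypes -0.017 to 0.035 in Neurons_1 and, between repeats -0.044 to 0.46 in OPCs, -0.15 to 0.11 in astrocyte cluster, -0.37 to 0.12 in microglia and macrophages, -0.67 to 0.25 in oligodendrocytes. For Hsd11b1 they were, between genotypes -0.019 to 0.59 in Neurons_1, -0.29 to 1.47 in astrocyte cluster and, between repeats -0.037 to 0.26 in microglia and macrophages, -0.54 to 0.0078 in oligodendrocytes. For Nr3c1 they were, between genotypes -0.20 to 0.26 in Neurons_1, -0.22 to 0.075 in OPCs, -0.35 to 0.12 in astrocyte cluster, -0.086 to 0.019 in microglia and macrophages, -0.21 to 0.33 in oligodendrocytes and, between repeats -0.038 to 0.084 in microglia and macrophages. For Nr3c2 they were, between genotypes -0.019 to 0.078 in oligodendrocytes and, between repeats -0.11 to 0.0502 in Neurons_1, -0.054 to 0.17 in OPCs, -0.0598 to 0.045 in oligodendrocytes. For Sgk1 they were, between genotypes -0.10 to 0.052 in OPCs, -0.47 to 0.014 in microglia and macrophages and, between repeats -0.90 to 0.37 in astrocyte cluster, -0.48 to 0.0053 in microglia and macrophages, -0.0093 to 1.36 in oligodendrocytes. For Tsc22d3 they were, between genotypes -0.42 to 0.10 in Neurons_1, -0.37 to 0.32 in OPCs, -0.16 to 0.088 in astrocyte cluster, -0.51 to 0.45 in microglia and macrophages and, between repeats -0.39 to 0.20 in Neurons_1, -0.61 to 0.35 in microglia and macrophages, -0.063 to 0.17 in oligodendrocytes. For Zbtb16 they were, between genotypes -0.42 to 0.32 in OPCs, -0.37 to 0.58 in microglia and macrophages and, between repeats -0.47 to 0.12 in OPCs, -0.13 to 0.095 in astrocyte cluster. Without nuclei with endothelial or mural genes, levels in the sub-cluster labelled MCH moved from 132 to 106 CPM for Nr3c1, 241 to 225 for Nr3c2, 37.2 to 41.7 for Fkbp5, 66.1 to 47.4 for Tsc22d3 and 71.0 to 40.9 for Zbtb16; the other 131 of 136 levels moved by less than 1 SD. Rare types such as the Oxytocin sub-cluster gave few UMIs.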
